A study of Saccharomyces cerevisiae W303 with 16 samples.

Results

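In wild-type *SUP45* cells grown at 25°C, 88 genes carried at least 10 ribosome footprints in the extension, the stretch of 3’-UTR between the normal stop codon and the next stop codon in the same frame. They were chosen from 6575 transcripts by 3 criteria applied to that growth condition alone: at least 10 extension footprints, at least 100 CDS footprints, and a 3’-UTR length that was annotated rather than set to the default of 173 nt (176 nt with the stop codon, as the tables give it). Of the 2833 transcripts with an annotated 3’-UTR, 2645 had at least 100 CDS footprints, and the 88 genes are 3.33% of these. The other 2557 had fewer than 10 extension footprints. Because the *SUP45* 25°C counts chose the genes, they are given as a description and carry no test.

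Translation ends when the release factor eRF1, the product of *SUP45*, recognises a stop codon that has entered the ribosome and, with eRF3 (*SUP35*), frees the finished protein. Readthrough is the failure of this step: an amino acid is inserted at the stop codon and the protein grows a C-terminal extension. Ribosome profiling, which sequences the mRNA fragments that ribosomes protect, shows ribosomes that have read through a stop codon as footprints downstream of it.

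Both strains are haploid MATa yeast of the W303 background with the alleles *ura3-1*, *trp1-1*, *can1-100*, *leu2-3,112*, *ade2-1* and *his3-11,15*, and the mutant carries in addition *sup45-2*, a temperature-sensitive eRF1 allele called *sup45-ts* here, which was brought into the wild type by gene replacement. The 4 conditions were *sup45-ts* cells 30 min after a shift to 37°C, *sup45-ts* cells after a mock shift at 25°C, *SUP45* cells 30 min after a shift to 37°C, and *SUP45* cells after a mock shift at 25°C, with 2 ribosome profiling and 2 total RNA-Seq libraries of each, 16 in all. The authors combined the replicates of a condition before they counted footprints for readthrough, so each gene has 1 readthrough value per condition, no replicate error and no test, and the intervals given are 95% Clopper-Pearson intervals that cover counting error only. Each table’s CDS and 3’-UTR footprints summed to 6463100 in *sup45-ts* 37°C, 21557248 in *sup45-ts* 25°C, 16629631 in *SUP45* 37°C and 17278816 in *SUP45* 25°C. The 8 RNA-Seq libraries held between 107324550 and 153654244 expected counts. The sources do not say whether the replicates were separate cultures, so p-values measure the spread between these libraries.

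Throughout, the extension percent is the footprint density of the extension (footprints per nt) as a percent of the footprint density of the CDS of the same gene in the same condition. The authors left the start (15 nt) and the end (33 nt) of each CDS out of the CDS count. Ribosomes that stalled at the second stop codon were not left out of the extension, since many extensions are too short. The paper says that readthrough may therefore be somewhat overestimated.

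Most of the 88 genes encode the machinery that makes proteins or the enzymes of sugar breakdown. Cytosolic ribosomal proteins made up 54 of the 88, out of 132 ribosomal protein genes that had an annotated 3’-UTR and enough CDS footprints (40.9%). Glycolysis and fermentation contributed 7 of 19 genes: *PFK1* (phosphofructokinase), *PGI1* (phosphoglucose isomerase), *TPI1* (triose phosphate isomerase), *TDH3* (glyceraldehyde-3-phosphate dehydrogenase), *PGK1* (phosphoglycerate kinase), *ENO2* (enolase) and *CDC19* (pyruvate kinase). Of 25 translation elongation and initiation factor genes, 3 were among the 88: *TEF1* and *TEF2*, which both encode the elongation factor eEF1A, and *EFT2*, which encodes eEF2.

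The cell wall list held 4 of the 88 among 23 genes: *BGL2* (a cell wall glucanase) and the mannoproteins *CIS3*, *CCW12* and *CWP2*. The sterol pathway held 2 of 21, *ERG20* (farnesyl pyrophosphate synthase) and *MVD1* (mevalonate pyrophosphate decarboxylase). *HTA2*, a histone H2A gene, was 1 of 10 histone genes, *SSB1*, a ribosome-associated Hsp70 chaperone, 1 of 27 chaperone genes, and *SBH1*, a subunit of the endoplasmic reticulum translocon, 1 of 8. Genes of oxidative phosphorylation (0 of 30), amino acid synthesis (0 of 26) and translation termination, recycling and mRNA surveillance (0 of 10) were not among them. The other 15 of the 88 lay in none of the lists: *EGT2*, *CHP1*, *ARF1*, *ASC1*, *RPC19*, *SND3*, *IMD4*, *NCW1*, *VMA1*, *DED81*, *PSA1*, *MRH1*, *GIS2*, *ACT1* and *YHB1*. Among these are *RPC19*, a subunit shared by RNA polymerases I and III, *IMD4*, an enzyme of guanine nucleotide synthesis, *DED81*, the asparaginyl-tRNA synthetase, *MRH1*, a plasma membrane protein, and *GIS2*, a zinc-finger protein that binds mRNAs. The 88 genes lie on all 16 chromosomes, with 16 of them on chromosome IV.

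The rule sets a minimum count, and a gene with many footprints reaches it more readily than a gene with few. In *SUP45* 25°C cells the median CDS density was 3711 RPKM over the 88 genes and 59.0 RPKM over the other 2557 transcripts, and the 88 genes held 53.75% of all extension footprints of the 2645. The fewest CDS footprints of any of the 88 were 1032, in *SBH1*. The minimum of 100 removed no transcript that had an annotated 3’-UTR and 10 or more extension footprints. A further 28 transcripts with 10 or more extension footprints had the default 3’-UTR and were left out, 18 of them with fewer than 100 CDS footprints.

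The threshold of 10 cut through a continuous distribution. Exactly 10 extension footprints were found in 11 of the 88 genes, and 9 in 14 of the other transcripts. Just inside were *BGL2* (5.31%), *RPC19* (3.48%), *RPL17A* (0.682%) and *SSB1* (0.198%). Just outside, with 9 footprints each, were *HSP150*, a cell wall protein (4.86%), *BMH1*, a 14-3-3 protein (4.64%), *ADH1*, the main alcohol dehydrogenase of fermentation (0.469%), and *RPS16B* (0.0978%). The percents on the 2 sides therefore overlapped over most of their range.

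**Figure D1:**
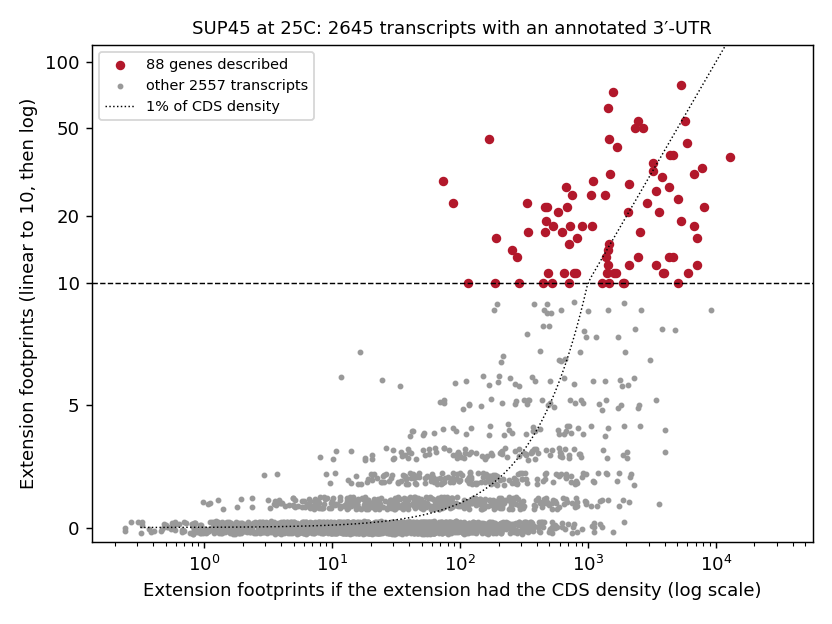
Each point is 1 of the 2645 transcripts with an annotated 3’-UTR and at least 100 CDS footprints in *SUP45* 25°C cells. The x axis gives the extension footprints the transcript would have at its own CDS density (log scale), the y axis the extension footprints counted (linear to 10, then log, with small random offsets under 10), red points are the 88 genes, grey points the other 2557, the dashed line is the minimum of 10 and the dotted line marks 1% of the CDS density. The red points lie on both sides of the dotted line, with 49 of 88 at or above 1%.

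The 88 genes had shorter coding regions than the other transcripts, with a median CDS of 555 nt (75 to 3213 nt) against 1095 nt. This difference lay with the ribosomal protein genes. Their median CDS was 456 nt in the 54 among the 88 and 429 nt in the 78 under the threshold. The other 34 of the 88 genes had a median of 1069.5 nt. Of the 88, *RPL41A* had the shortest CDS and *VMA1*, the catalytic subunit of the vacuolar proton pump, the longest. The 3’-UTR had a median of 151 nt with the stop codon (51 nt in *IMD4* to 485 nt in *MRH1*), against 127 nt in the other transcripts. The extension had a median of 22.5 nt (6 to 138 nt), against 30 nt.

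Extensions of up to 15 nt were found in 31 genes, 16 to 60 nt in 35 and over 60 nt in 22. Extensions of 6 nt were those of *ERG20*, *RPS26B*, *TPI1*, *CCW12* and *TEF2*, and the longest was that of *PSA1*, which encodes GDP-mannose pyrophosphorylase. The shortest extension in the tables is 3 nt (442 transcripts), and whether this length includes the second stop codon is not stated. An extension of a few nt is much shorter than a footprint, so its count rests on the assignment of each footprint to a P-site.

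Ribosomal protein genes inside and outside the 88 differed in extension length. The 54 had a median extension of 31.5 nt, and the 78 ribosomal protein genes under the threshold had 12 nt, while their median CDS densities were 4278 and 3615 RPKM. A longer extension collects more footprints at the same density, so that this difference is part of how the genes were chosen.

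The extension percent in *SUP45* 25°C cells ranged over more than 2 orders of magnitude, between 39.2% and 0.170%, with a median of 1.38%. At the top was *EGT2* (chrXIV:24048-27173, plus strand, RefSeq R64 annotation), which encodes a cell wall glucanase that acts in the separation of mother and daughter cells. It had 29 extension footprints on 33 nt and 6895 footprints on a CDS of 3123 nt, or 39.2% (26.2 to 56.3%). *HTA2* (chrII:235394-235792, minus strand) followed with 45 footprints on 12 nt, or 26.6% (19.4 to 35.7%). *ERG20* (chrX:105014-106072, plus strand) had 23 footprints on 6 nt, or 26.3% (16.7 to 39.5%). The intervals of these 3 genes overlapped each other, and none of them reached down to that of *MVD1*, the next gene, at 8.68% (4.16 to 15.97%).

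After *MVD1* came *CHP1*, a chaperone of newly made eEF1A, at 8.31%, *PFK1* at 6.88%, *ARF1*, a small GTPase of vesicle transport, at 5.50%, *BGL2* at 5.31%, *PGI1* at 5.01%, and the ribosomal proteins *RPL7A* at 4.76%, *RPL5* at 4.66% and *RPS26B* at 4.63%. From *MVD1* to *RPS26B* the counting intervals of neighbours overlapped. The lowest were *RPL40B* (0.170%), the flavohemoglobin gene *YHB1* (0.181%), *SSB1* (0.198%), *RPS24B* (0.225%), *RPS28A* (0.268%) and *RPL40A* (0.271%), which all have extensions of 78 nt or more.

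Of the 6 genes with the most extension footprints, *RPL5* alone was also among the 12 with the highest percents. *TDH3* had 79 footprints at 1.48%, *RPL5* 73 at 4.66%, and *ASC1*, a ribosome-bound scaffold protein, 62 at 4.30%. *RPP0* and *RPS23B* had 54 each, at 2.20% and 0.947%, and *RPS29B* had 50 at 2.13%.

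**Figure D2:**
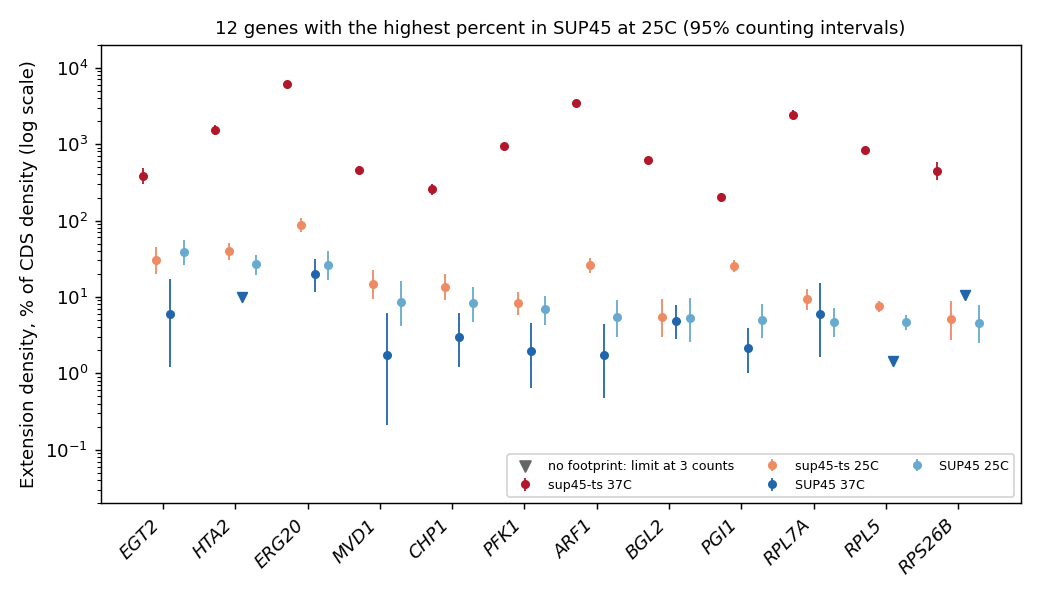
The 12 genes with the highest extension percent in *SUP45* 25°C cells, with the percent in all 4 conditions (y axis, log scale). Points are 1 value per condition, bars are 95% counting intervals, and triangles give the limit that 3 counts would set where no extension footprint was counted. All 12 *sup45-ts* 37°C points lie above the points of the other conditions, and *HTA2*, *RPL5* and *RPS26B* had no extension footprint in *SUP45* 37°C cells.

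In *sup45-ts* 37°C cells every one of the 88 genes had extension footprints, and the percent was higher than in *SUP45* 37°C cells in 88 of 88 genes. The median percent was 205% in *sup45-ts* 37°C cells and 0.245% in *SUP45* 37°C cells. The counting intervals of the 2 conditions were apart in all 88 genes, where they were apart in the same direction in 78.4% of the 2454 transcripts that could be compared. For the 58 genes with a footprint in both conditions the median ratio was 282. This comparison used neither of the counts that chose the genes. The 88 genes are better covered than most transcripts, and intervals of transcripts with few footprints are wide. Nothing is therefore read from the difference between 88 of 88 and 78.4%.

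*ERG20* was the highest gene in *sup45-ts* 37°C cells, with 852 extension footprints and 2312 CDS footprints, or 6191% of the CDS density, against 17 and 14376, or 19.9%, in *SUP45* 37°C cells. *ARF1* reached 3439% in *sup45-ts* 37°C cells, against 1.74% in *SUP45* 37°C cells, and *RPL7A* 2417% against 5.98%. *RPL16B* had 907 extension footprints (2309%) in *sup45-ts* 37°C cells and none in *SUP45* 37°C cells. *HTA2* had 304 (1536%) and none.

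The extension was denser than the CDS itself in 58 of the 88 genes in *sup45-ts* 37°C cells, and in 1413 of the other 2557 transcripts. These densities include ribosomes stalled at the second stop codon, so they are not readthrough rates. The largest count was that of *NCW1*, a small cell wall protein, with 6142 extension footprints against 1531 CDS footprints in *sup45-ts* 37°C cells, and 35 against 3715 in *SUP45* 37°C cells. At the low end in *sup45-ts* 37°C cells stood *RPL40B* (5.33%), *RPS28A* (6.96%), *RPS11A* (10.5%), *RPL40A* (17.9%) and *RPL21B* (18.2%), so that the genes spanned over 3 orders of magnitude.

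In *sup45-ts* cells the percent was higher at 37°C than at 25°C in 88 of 88 genes, with intervals apart in all 88, against 76.6% of 2455 transcripts. The same limit of coverage holds for this difference in share. The median ratio was 54.4. It was highest in *RPS22A*, which had 1330 extension footprints (577%) in *sup45-ts* 37°C cells and 41 (0.534%) in *sup45-ts* 25°C cells, a ratio of 1079.8, and lowest in *RPS28A*, at 6.91.

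**Figure D3:**
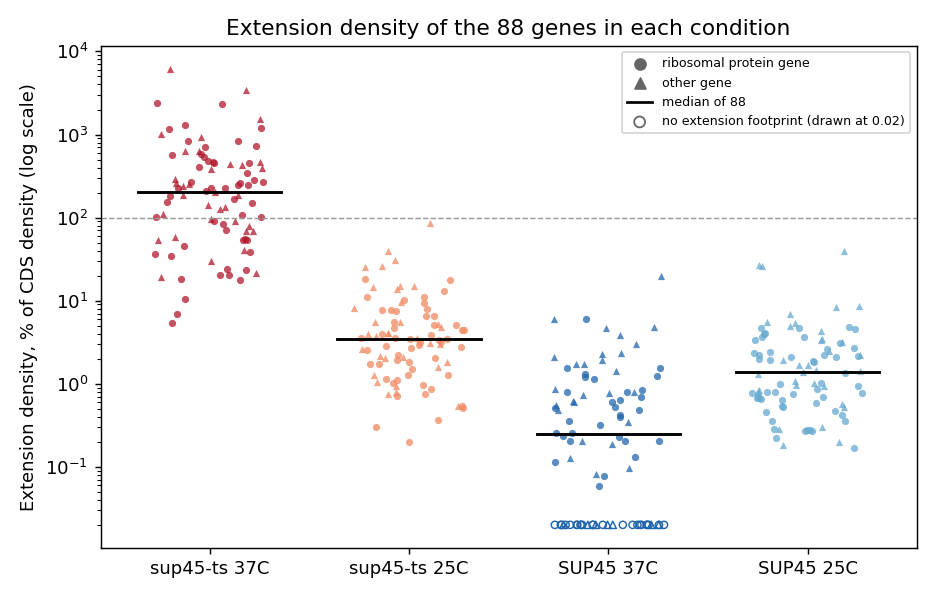
Extension percent (y axis, log scale) of each of the 88 genes in the 4 conditions. Circles are ribosomal protein genes, triangles other genes, black lines the median of the 88 genes, open symbols the 30 genes with no extension footprint in *SUP45* 37°C, drawn at 0.02, and the dashed line marks equal density of extension and CDS. The medians are 205%, 3.44%, 0.245% and 1.38% from left to right.

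At 25°C the percent was higher in *sup45-ts* cells than in *SUP45* cells in 86 of 88 genes, with medians of 3.44% and 1.38% and a median ratio of 2.43. The counting intervals were apart in 51 genes, all higher in *sup45-ts* cells, where 5.11% of 2640 transcripts were called in this way. The *SUP45* 25°C counts chose the genes, and intervals of transcripts with few footprints are wide, so nothing is read from the difference between these shares.

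*RPP1A*, which encodes an acidic protein of the ribosomal stalk, had the largest ratio at 25°C. It had 322 extension footprints, or 18.4% (16.4 to 20.5%), in *sup45-ts* 25°C cells and 25, or 1.84% (1.19 to 2.72%), in *SUP45* 25°C cells. *RPS30B* followed with 2.66% in *sup45-ts* 25°C cells and 0.354% in *SUP45* 25°C cells, and *CIS3* with 15.2% and 2.24%. The highest percents in *sup45-ts* 25°C cells were those of *ERG20* (87.1%), *HTA2* (39.7%), *EGT2* (30.7%), *ARF1* (25.8%) and *PGI1* (25.3%). The lowest were those of *RPL40B* (0.197%), *RPL35A* (0.300%), *RPL40A* (0.363%), *RPL21B* (0.515%) and *RPS22A* (0.534%).

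Only *EGT2* and *SBH1* were not higher in *sup45-ts* 25°C cells. *EGT2* had 25 extension footprints (30.7%) in *sup45-ts* 25°C cells and 29 (39.2%) in *SUP45* 25°C cells, and *SBH1* had 19 (2.17%) and 22 (3.20%). In both genes the intervals of the 2 strains overlapped.

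In *SUP45* 37°C cells the 88 genes had 334 extension footprints, against 2021 in *SUP45* 25°C cells, and 30 genes had none. At each gene's own 25°C percent and its own CDS footprints at 37°C, 749 footprints would have been counted, so the observed number was 44.6% of that. The percent was lower at 37°C than at 25°C in 81 genes and higher in 7. Since the genes were chosen for a minimum count at 25°C, a count in a second table tends to be lower, and this direction is in part fixed by the choice. Over the other 2557 transcripts, which were chosen for a low count at 25°C, the summed percents were 0.302% at 37°C and 0.4996% at 25°C.

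Intervals were apart in 10 of the 88 genes, all lower at 37°C in *SUP45* cells, against 0.493% of 2635 transcripts, and the rule used this contrast too. *CDC19* had 3 extension footprints (0.128%, 0.0264 to 0.374%) on 188865 CDS footprints in *SUP45* 37°C cells and 35 (1.08%, 0.749 to 1.497%) on 262384 in *SUP45* 25°C cells. *PSA1* had 8 (0.188%) and 38 (0.820%), *RPP0* 2 (0.423%) and 54 (2.20%), *TDH3* 40 (0.621%) and 79 (1.48%), and *EGT2* 3 (5.93%) and 29 (39.2%). The other 5 were *HTA2*, *RPL5*, *SND3*, *TEF1* and *RPL28*, none of which had an extension footprint in *SUP45* 37°C cells.

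Among the 30 genes without a footprint in *SUP45* 37°C cells, the 5 with the most CDS footprints there differed widely in the limit that a count of 0 allows. *TEF1* had 0 extension footprints beside 175142 CDS footprints, which allows up to 0.252% at 3 counts, against 1.33% in *SUP45* 25°C cells. *YHB1* had 16552 CDS footprints (limit 0.183%), *SSB1* 14329 (0.481%), *RPL4A* 14017 (2.47%) and *RPL5* 11565 (1.46%). Only *TEF1* and *RPL5* of these 5 had a 25°C percent above the limit. At the 25°C percent, 17 of the 30 genes would have had fewer than 3 footprints, so that a lower percent was not detectable in them at this depth.

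Only 8 of the 88 genes (9.09%) had 10 or more extension footprints in *SUP45* 37°C cells, beside 9 of the other 2557 transcripts (0.352%). None of the 8 encodes a ribosomal protein. The CDS footprints of the 54 ribosomal protein genes added up to 306096 at 37°C and 1888081 at 25°C in *SUP45* cells. At their 25°C percents these 54 genes together would have had 212 extension footprints at 37°C. Their absence from the 8 is therefore not read as a difference in readthrough. Of the 8, *TDH3* had 40, *NCW1* 35 (2.37%), *SBH1* 30 (4.63%), *PGK1* 25 (0.781%), *ERG20* and *BGL2* 17 each (19.9% and 4.83%), *TPI1* 12 (2.26%) and *PGI1* 10 (2.12%). *NCW1* and *SBH1* had more than the 25.1 and 20.7 footprints that their 25°C percents would give, with counting intervals that overlapped those at 25°C. The highest percents in *SUP45* 37°C cells were those of *ERG20*, *RPL7A* (5.98%, from 4 footprints), *EGT2* (5.93%, from 3), *BGL2* and *SBH1*.

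**Figure D4:**
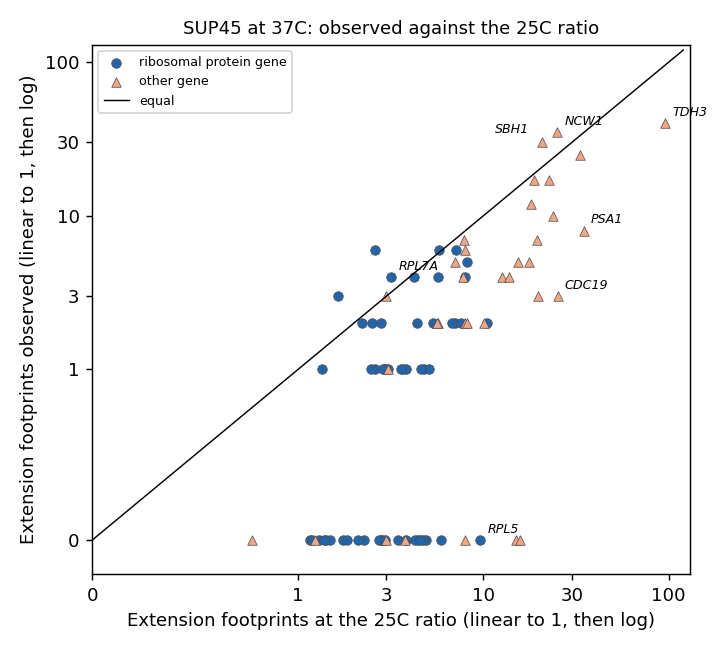
Extension footprints counted in *SUP45* 37°C cells (y axis) against the number that each gene's 25°C percent and its 37°C CDS footprints would give (x axis), both axes linear to 1 and then log. Circles are ribosomal protein genes and triangles other genes, and the line marks equal numbers. Of the 88 genes 81 lie below the line, 30 of them at 0, and *NCW1* and *SBH1* are the 2 above it with 10 or more footprints.

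The order of the genes was similar in 3 of the 4 conditions. Across the 88 genes, Spearman’s ρ of the percents was 0.89 between *sup45-ts* 25°C and *SUP45* 25°C, 0.73 between *sup45-ts* 37°C and *SUP45* 25°C, and 0.71 between *sup45-ts* 37°C and *sup45-ts* 25°C. It was 0.40 between *SUP45* 37°C and *SUP45* 25°C, where 58 of the genes had 0 to 2 footprints at 37°C. These are correlations over genes and not over replicates, and the genes share their extension and CDS lengths in every condition. The *SUP45* 25°C counts chose the genes, so the correlations with that condition are a description only.

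The percent went with the length of the extension. Across the 88 genes ρ with extension length was −0.51 in *sup45-ts* 37°C, −0.53 in *sup45-ts* 25°C, −0.04 in *SUP45* 37°C and −0.62 in *SUP45* 25°C, where a short extension must have a high percent to hold 10 footprints. The median percents of the 31 genes with extensions of up to 15 nt were 411%, 5.55%, 0% and 3.32% in the conditions as just listed, those of the 35 genes with 16 to 60 nt 182%, 3.44%, 0.488% and 1.08%, and those of the 22 genes with over 60 nt 53.5%, 1.14%, 0.195% and 0.439%. The percents of the *sup45-ts* tables went with those that chose the genes (ρ of 0.73 at 37°C and 0.89 at 25°C), so that the gradient there cannot be told apart from the choice. Ribosomes stalled at the second stop codon are also counted in extensions of every length, and their part in the gradient was not tested.

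Most 3’-UTR footprints of the 88 genes lay in the extension in 3 of the 4 conditions, although the extensions make up 23.9% of the 3’-UTR length. The extension held 93.4% of the 3’-UTR footprints in *sup45-ts* 25°C cells, 79.7% in *SUP45* 37°C cells and 90.7% in *SUP45* 25°C cells. In *sup45-ts* 37°C cells it held 48.9%, or 33499 of 68545, and the rest lay beyond the second stop codon. The extensions of the other 2557 transcripts make up 28.4% of their 3’-UTR length. Their share was 48.1% in *sup45-ts* 37°C cells, 80.6% in *sup45-ts* 25°C cells, 67.4% in *SUP45* 37°C cells and 64.2% in *SUP45* 25°C cells. The 88 genes were chosen for a minimum of extension footprints in *SUP45* 25°C cells, and the other transcripts lay under it. The shares of 90.7% and 64.2% are therefore in part fixed by the choice, and nothing is read from the difference between them.

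Ribosomal protein genes and the remaining 34 genes both had their highest percents in *sup45-ts* 37°C cells and their lowest in *SUP45* 37°C cells. The summed percent of the 54 ribosomal protein genes was 187% in *sup45-ts* 37°C, 2.45% in *sup45-ts* 25°C, 0.281% in *SUP45* 37°C and 0.843% in *SUP45* 25°C. That of the other 34 was 245%, 3.28%, 0.642% and 1.27%. In *SUP45* 37°C cells the 54 ribosomal protein genes together had 73 extension footprints (0.220 to 0.353%) and the 34 others 261 (0.567 to 0.725%).

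Within the ribosomal protein family, the 54 genes can be set beside the 78 that had under 10 extension footprints in *SUP45* 25°C cells. Their summed percents were 187% against 127% in *sup45-ts* 37°C cells and 2.45% (2.37 to 2.52%) against 1.195% (1.13 to 1.27%) in *sup45-ts* 25°C cells. In *SUP45* 37°C cells they were 0.281% (0.220 to 0.353%) against 0.221% (0.151 to 0.312%), with overlapping intervals. These sums carry counting error only and were not tested.

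In 11 pairs of paralogues, taken by gene name without a comparison of their sequences, both genes were among the 88. *RPP1A* and *RPP1B*, 2 stalk proteins, have extensions of 18 and 72 nt and had 712% and 20.3% in *sup45-ts* 37°C cells, 18.4% and 0.968% in *sup45-ts* 25°C cells, and 1.84% and 0.423% in *SUP45* 25°C cells. *RPL16A* and *RPL16B* had 71.5% and 2309% in *sup45-ts* 37°C cells, with extensions of 42 and 9 nt. *RPL4A* and *RPL4B* both have 9 nt, and had 3.54% (2.19 to 5.41%) and 17.95% (14.6 to 21.8%) in *sup45-ts* 25°C cells. The gene with the higher percent was the same in *sup45-ts* and *SUP45* 25°C cells in 11 of 11 pairs. Intervals of the 2 genes were apart in 8 and 3 of the pairs, and in 0 in *SUP45* 37°C cells. In *sup45-ts* 37°C cells the order was reversed for *RPL42A* and *RPL42B* (55.4% and 281%) and *TEF1* and *TEF2* (30.3% and 59.2%). *RPS1A* and *RPS1B* were also reversed (272% and 266%), with overlapping intervals. The other pairs kept their order. The shorter extension had the higher percent in 8 of 10 pairs of unequal length in *SUP45* 25°C cells. Each gene had to hold 10 footprints there, so this direction is in part fixed by the choice.

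The CDS footprints of the 2 genes differed by less than 1.2 times in 8 of the 11 pairs. CDS reads of paralogues with near-identical coding regions may be shared between them by the counting, so the percent of each gene of such a pair is uncertain. Extension footprints lie in the 3’-UTR, where paralogues are usually less alike. The same doubt applies to the genes whose close paralogue was not among the 88, such as *HTA2*, *EFT2*, *SSB1* and many of the ribosomal protein genes. *PGI1* and *RPL9B* overlap another transcript on the same strand by more than 18 bases, and their 3’-UTR footprints are uncertain for that reason.

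Termination genes were not among the 88. *SUP45* itself has the default 3’-UTR, and had 70 extension footprints in *sup45-ts* 37°C cells, 4 in *sup45-ts* 25°C cells and 0 in *SUP45* cells at both temperatures. *SUP35* had 4 and 1 in *sup45-ts* 37°C and 25°C cells, and 0 and 1 in *SUP45* 37°C and 25°C cells. *PDE2*, a phosphodiesterase gene known for readthrough in yeast, had 75 and 2 in *sup45-ts* 37°C and 25°C cells, and 0 and 2 in *SUP45* 37°C and 25°C cells, the last being 4.54% of the density of a CDS with 1021 footprints. That percent rests on 2 extension footprints, a count under the minimum, so it was not ranked beside the 88 genes.

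The mRNAs of the 88 genes were among the most abundant in the cell. In *SUP45* 25°C cells their median level was 3038 FPKM (mean of 2 libraries), against 26.2 FPKM over all 6952 transcripts in the RNA-Seq files, and 82 of the 88 lay at or above the 95th percentile. *TDH3* was the highest, at 16047 ± 1148 FPKM (SD, n = 2), and *EGT2* the lowest, at 54.5 ± 5.11 FPKM, the 70.3 percentile. The 88 genes together took 26.8% of the summed FPKM in *SUP45* 25°C cells and 26.1% in *sup45-ts* 25°C cells. At 37°C they took 9.54% in *sup45-ts* cells and 12.6% in *SUP45* cells.

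The heat shift changed the mRNA of nearly all 88 genes. In edgeR’s quasi-likelihood test (p-values adjusted after Benjamini and Hochberg), 4 rose and 80 fell in *SUP45* cells at 37°C against 25°C, with 38.4% of all 6767 tested transcripts called higher and 37.4% called lower (75.8% in either direction). All 54 ribosomal protein genes fell, with a median log2 fold change of −3.29, or 9.79-fold lower. Of all 137 ribosomal protein transcripts 136 fell (median −3.25). The fold changes are on edgeR’s TMM scale. With scaling by total count the median of all transcripts moved up by 0.55, and 4 called genes (*TPI1*, *ACT1*, *ERG20* and *MVD1*) took the opposite sign, with 8 genes in place of 4 called higher and 75 in place of 80 lower, while the median of the 88 was −2.42 in place of −2.97.

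The 4 genes that rose were *NCW1*, *PGK1*, *BGL2* and *CHP1*. *NCW1* had 1139 and 1277 FPKM in *SUP45* 37°C cells, against 386 and 398 FPKM in *SUP45* 25°C cells, a log2 fold change of 1.07 ± 0.08 (SE; adjusted p = 1.16e-06). *PGK1* had 7386 and 6745 FPKM at 37°C and 2984 and 2588 FPKM at 25°C in *SUP45* cells (log2 fold change 0.79 ± 0.15, adjusted p = 0.0010). *BGL2* changed by 0.66 ± 0.10 and *CHP1* by 0.37 ± 0.08. The 2 libraries of each condition did not overlap in any of the 4. *NCW1*, *PGK1* and *BGL2* are also 3 of the 8 genes with 10 or more extension footprints in *SUP45* 37°C cells.

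Among the largest falls in *SUP45* cells were those of *RPL22A* and *SSB1*. *RPL22A* had 419.5 and 456 FPKM in *SUP45* 37°C cells, against 3969 and 4373 FPKM in *SUP45* 25°C cells (−3.80 ± 0.11). *SSB1* changed by −3.70 ± 0.13 on the log2 scale. *PGI1*, *SBH1*, *TDH3* and *ENO2* did not pass the test, with log2 fold changes between −0.27 and −0.05. Fewer mRNAs of a gene per cell and a smaller share of all mRNA cannot be told apart in these libraries.

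In *sup45-ts* cells 2 genes rose and 85 fell at 37°C against 25°C, where 44.6% and 42% of all tested transcripts were called higher and lower. The shift of the median under total-count scaling was 0.64, and no gene of the 88 changed sign. *NCW1* had 1576 and 1519.6 FPKM in *sup45-ts* 37°C cells, against 414 and 375 FPKM in *sup45-ts* 25°C cells (log2 fold change 1.33 ± 0.08, adjusted p = 1.25e-07). *MVD1* changed by 0.34 ± 0.09. *SSB1* (−4.66 ± 0.14), *RPS11A* (−4.52 ± 0.09) and *RPL40B* (−4.46 ± 0.10) fell most. *SSB1* had 225 and 230.1 FPKM in *sup45-ts* 37°C cells, against 3718 and 3676 FPKM in *sup45-ts* 25°C cells.

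Between the strains at 37°C the 88 genes were divided, with 20 higher and 46 lower in *sup45-ts* cells, beside 39.5% higher and 39.4% lower over all tested transcripts. The median log2 fold change was −0.29 over the 88 and −0.01 over all. In a test of the difference between the strains’ heat shifts 56 of the 88 were called, against 70.1% of all transcripts (34.5% higher and 35.7% lower). *RPL9B* had 911 and 876 FPKM in *sup45-ts* 37°C cells, against 294 and 296 FPKM in *SUP45* 37°C cells, a log2 fold change of 1.61 ± 0.08 (adjusted p = 1.14e-07). *YHB1* (1.31 ± 0.10) and *RPP2B* (1.17 ± 0.15) were next. *PSA1* fell most, with 333 and 309 FPKM in *sup45-ts* 37°C cells, against 1399 and 1402 FPKM in *SUP45* 37°C cells (−2.12 ± 0.11), followed by *ACT1*, the actin gene (−1.86 ± 0.10), and *SND3*, which acts in protein targeting to the endoplasmic reticulum (−1.75 ± 0.09).

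Of the lists to which the 88 genes belong, glycolysis and fermentation had 4 genes higher and 14 lower of 21 in *sup45-ts* cells at 37°C against *SUP45* 37°C cells (median −0.74). The cytosolic ribosomal proteins had 36 higher and 63 lower of 137 (median −0.21), the elongation and initiation factors 4 and 15 of 28, the cell wall list 7 and 13 of 29, ergosterol synthesis 12 and 7 of 25, the translocon 0 and 9 of 9, the histones 8 and 2 of 10, and the chaperones 15 and 7 of 34. Of the termination, recycling and surveillance genes 5 were higher and 6 lower of 14, among them *SUP45* (−0.69 ± 0.07) and *SUP35* (−0.71 ± 0.08).

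At 25°C none of the 88 genes differed in mRNA between *sup45-ts* and *SUP45* cells by edgeR’s test, where 0.133% of all tested transcripts were called, 0.118% higher and 0.0148% lower. At an unadjusted p under 0.05 in edgeR's test there were 8 of the 88, beside 877 of all 6767 tested transcripts. DESeq2 called 1 of the 88, *HTA2*, beside 124 of all transcripts. *HTA2* had 658 and 689 FPKM in *sup45-ts* 25°C cells, against 825 and 1036 FPKM in *SUP45* 25°C cells (−0.37 ± 0.10, adjusted p = 0.238 by edgeR and 0.0226 by DESeq2). Log2 fold changes of the 88 lay between −0.39 and 0.43, with a median of 0.02.

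**Figure D5:**
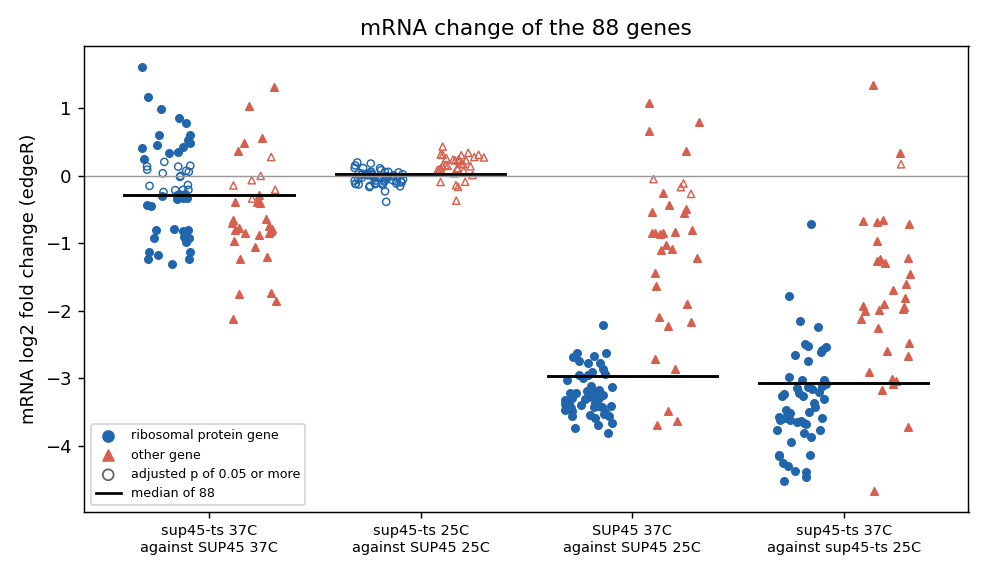
mRNA log2 fold change by edgeR (y axis) of each of the 88 genes in 4 comparisons. Circles are ribosomal protein genes, triangles other genes, filled symbols have an adjusted p under 0.05, and black lines are the medians of the 88. All 54 ribosomal protein genes lie below 0 in both comparisons of 37°C with 25°C, and no symbol is filled in the comparison of the strains at 25°C.

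The ratio of CDS footprint density to mRNA level differed between genes, from 0.421 to 3.83 over the 88 in *sup45-ts* 37°C cells. The median ratio of CDS RPKM to mRNA FPKM over the 88 genes was 1.08 in *sup45-ts* 37°C cells, 1.27 in *sup45-ts* 25°C cells, 1.27 in *SUP45* 37°C cells and 1.298 in *SUP45* 25°C cells. Over all transcripts with at least 1 FPKM it was 0.814 and 0.789 in *sup45-ts* 37°C and 25°C cells, and 0.764 and 0.756 in *SUP45* 37°C and 25°C cells. The CDS footprints of the 88 genes added up to 444996 in *sup45-ts* 37°C cells, 5486688 in *sup45-ts* 25°C cells, 2443114 in *SUP45* 37°C cells and 4502392 in *SUP45* 25°C cells, so that the percents in *sup45-ts* 37°C cells rest on the fewest CDS footprints.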

How the data were processed

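For readthrough, the authors trimmed the reads with cutadapt, removed non-coding RNA and PCR duplicates, aligned to their R64-2-1 transcriptome, assigned P-sites, combined replicates and deposited footprint counts for CDS, 3’-UTR and extension, with RPKM values and the log2 ratio that the authors took of extension to CDS density. For RNA-Seq, the authors deposited RSEM expected counts and FPKM per transcript. These expected counts were rounded and tested with edgeR 4.0.16 (R 4.3.3; quasi-likelihood test, TMM, filterByExpr, 8 libraries in 1 fit, Benjamini-Hochberg, threshold 0.05) and with DESeq2 1.42.0 as an alternative. The code was tested on simulated data. The ribosome profiling expected counts and FPKM that the authors deposited were not tested, since they were negatively correlated with CDS density and between 38 and 82 of the 88 genes had under 1 expected count in each library. The conversion to percent used Python 3.11.15, numpy 2.4.6, scipy 1.17.1 and pandas 2.3.3.

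The 88 genes, the gene lists and the rule for named genes were chosen with earlier results of these data known. Named were the 12 highest and 6 lowest percents in *SUP45* 25°C, the 6 with most extension footprints there, all with at least 10 in *SUP45* 37°C, the 5 highest and 5 lowest elsewhere, the 5 best covered genes without a footprint in *SUP45* 37°C, neighbours of the threshold, list members, and the 3 largest rises and falls in mRNA among called genes whose replicates did not overlap. Genes named for intervals apart, ratios or mRNA sign were chosen after their values were seen. Positions come from RefSeq’s R64 annotation. No genome sequence was used here, so stop codons and extension sequences were not analysed here. Some genes that the rule would name are not reported here by name.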

Additional observations from a re-analysis of the deposited data

Results flagged for a closer look

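The heat shift went with opposite directions of the extension percent in the 2 strains. In *sup45-ts* cells 88 of the 88 genes had a higher percent at 37°C than at 25°C, and in *SUP45* cells 81 had a lower percent at 37°C than at 25°C. Each condition is 1 value per gene, so this difference between the strains was not tested, and the direction in *SUP45* cells is in part fixed by the choice of the genes.

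The change of mRNA with heat also differed between the strains. In edgeR’s test of the difference (the heat shift in *sup45-ts* cells minus that in *SUP45* cells), 56 of the 88 genes were called, 15 higher and 41 lower, beside 70.1% of all 6767 transcripts. *RPL9B* had the highest log2 difference, 1.49 ± 0.11 (SE; adjusted p = 3.17e-06), and *PSA1* the lowest, −2.35 ± 0.15 (adjusted p = 1.44e-06).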

How the results depend on the processing

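A minimum of 5 extension footprints gave 176 genes and one of 20 gave 40, and a minimum of 1000 CDS footprints left 88. Without extensions of up to 15 nt the median percent was 110% in place of 205% in *sup45-ts* 37°C and 2.53% in place of 3.44% in *sup45-ts* 25°C. Without the genes that had no footprint it was 0.632% in place of 0.245% in *SUP45* 37°C. The share of the 88 genes called in mRNA at 25°C between the strains was 0%, against 1.14% with DESeq2 (*HTA2*) and 0% to 2.27% when each replicate was left out in turn, the highest without *SUP45* 25°C replicate 1 (*HTA2* and *RPL41A*, adjusted p = 0.0350 and 0.0490 by edgeR). With a replicate out, the lone library is assumed to vary like the other groups. With a replicate block 69 genes in place of 66 were called between the strains at 37°C, and 0, 84 and 87 as before in the other comparisons, a share of 78.4% in place of 75%. Same-numbered libraries had deviations correlated at 0.04, 0.02, 0.22 and 0.06 in the 4 comparisons, so the numbers are not taken as pairs. The other 63 alternative values of the number of genes, the median percents and the shares called in either direction stayed within 1.5 times or the interval of the main value. By direction, the genes called higher in *SUP45* cells at 37°C against 25°C were 8 in place of 4 under total-count scaling and 0 of 40 with the minimum of 20 footprints, and those in *sup45-ts* cells 3 and 0 in place of 2. The 170 alternative values of up to 3 of the largest rises and falls in each mRNA comparison kept their sign and stayed under the threshold. The called genes *TPI1*, *ACT1*, *ERG20* and *MVD1* and the uncalled *PGI1*, *SBH1*, *TDH3* and *ENO2* changed sign in *SUP45* cells as given above. Fold changes of other named genes and the differences between the strains’ heat shifts were not recomputed. Sums of spliced and unspliced transcripts per gene were added after the data were seen.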
